A study of Moricandia moricandioides and Moricandia arvensis and Moricandia suffruticosa with 11 samples.

Results

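Transcripts of 3 families of cell wall genes were followed in mature leaves of *Moricandia*: the expansins, the xyloglucan endotransglucosylase/hydrolases (XTH) and the cellulose synthases with their relatives. The members are the genes whose short description in the deposited gene table names an expansin, a xyloglucan endotransglucosylase or a cellulose synthase. They numbered 95 of 33602 gene models, with 34 expansins, 29 XTH genes and 32 cellulose synthase genes. All genes carry the names and loci of their Arabidopsis homologues, because the reads were matched to Arabidopsis coding sequences.

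A growing plant cell wall is a mesh of cellulose microfibrils tied together by xyloglucan and embedded in pectin. Cellulose is spun at the plasma membrane by complexes of CESA proteins, with one set for the primary wall of growing cells and another for the thickened secondary wall of xylem and fibres. XTH enzymes cut xyloglucan chains and rejoin them, and expansins loosen the contacts between cellulose and xyloglucan at acid pH without cutting them. In Arabidopsis leaves expansins, many XTH genes and the primary wall CESA genes are known for their activity during cell expansion, which has largely ended in a mature leaf.

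Leaves of *M. arvensis* (line MOR1, 4 plants) and *M. suffruticosa* (3 plants) were sampled, both of which use C3–C4 intermediate photosynthesis, together with leaves of the C3 species *M. moricandioides* (4 plants). No plant carried a transgene or received a treatment. All were raised from seed in a climate chamber, and mature leaves were frozen early in the light period before the plants became reproductive. Each species was grown from 1 seed source, so a difference between species cannot be told apart from a difference between these lines, and a difference with *M. moricandioides* cannot be told apart from the type of photosynthesis.

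Reads counted per plant ranged from 10987959 to 14865167. Across genes, log2 values of *M. arvensis* plants 13 and 15 had a Pearson correlation of 0.993 and those of *M. suffruticosa* plants 6 and 7 one of 0.994, and every other pair within a species correlated at 0.976 or less. The labels call each library a separate plant. *M. arvensis* plant 9 had a scaling factor of 0.834 by TMM, the normalization used in the tests, against 1.04 to 1.17 for the other *M. arvensis* plants. Levels are given as rpm, the reads of a gene relative to all counted reads of the plant, which are not scaled to gene length, so they compare plants for 1 gene and not 1 gene with another. Tests are the quasi-likelihood test of edgeR on the counts of all 11 plants, with p-values adjusted by Benjamini–Hochberg over the 15570 transcripts tested. Log2 fold changes carry their standard error (SE), and a call needed an adjusted p of at most 0.01.

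Of the 95 members, 35 were listed at 0 reads in every plant, which were 14 expansins, 12 XTH genes and 9 cellulose synthases. Among them were CESA1, CESA3 and CESA6, which in Arabidopsis make up the primary wall complex of most growing cells, and the touch-induced XTH22. Other members at 0 were CSLB2, CSLB4 and CSLB6, CSLG1 and CSLG2, EXPA1 and EXPA21 to EXPA26. CESA10, the closest relative of CESA1, held 182 to 604 rpm in the same plants. The authors used a reduced set of Arabidopsis coding sequences for matching, and reads of near copies of a gene cannot be told apart in such counts. A member listed at 0 is therefore not shown to be silent, and a member with reads can hold those of its relatives. A further 10 members had reads but too few for the test, at 1.31 rpm or less in any plant, and 50 members were tested.

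Most of the change in these families was a lower level in the intermediates, above all in *M. arvensis*. Of the 50 members tested, 26 were lower and 2 higher in *M. arvensis* than in *M. moricandioides*, where 16.7% of all transcripts tested were lower and 18.2% higher. In *M. suffruticosa* 10 members were lower and 1 was higher, against 8.82% and 10.1% of all transcripts. As shares of the members tested, 52.0% were lower in *M. arvensis*, against 20.0% in *M. suffruticosa*. The median log2 fold change of the members was -1.27 for *M. arvensis* and -0.45 for *M. suffruticosa*, with medians of 0.02 and 0.01 over all transcripts tested.

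Both comparisons share the 4 *M. moricandioides* plants, so their calls are not independent of each other. Lower in both intermediates were 7 members, where 5.37% of all transcripts were: CSLB1, CSLB3, CSLB5, EXPA6, XTH4, XTH8 and XTH16. Higher in both was none, against 6.13% of all transcripts, and none had an unadjusted p under 0.05 in both with edgeR or was called in both by DESeq2 or limma-voom. No member was called in opposite directions by edgeR at 0.01. With DESeq2 EXPA13 was called lower in *M. arvensis* and higher in *M. suffruticosa*. At a threshold of 0.05 in edgeR both EXPA13 and EXPA9 were called in opposite directions. A further 19 members were lower in *M. arvensis* and not past the threshold in *M. suffruticosa*. The reverse held for 3 members, lower in *M. suffruticosa* and not past the threshold in *M. arvensis*. How many of all transcripts showed these patterns was not counted, so the 19 and 3 members have no background share. Of all transcripts, 16.7% were lower in *M. arvensis*, 8.82% in *M. suffruticosa* and 5.37% in both. Between the intermediates, 16 members were lower and 3 higher in *M. arvensis* than in *M. suffruticosa*, where 9.92% of all transcripts were lower and 9.4% higher. Leaves are a mixture of cells, and fewer cells of a type cannot be told apart from less RNA per cell.

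**Figure D1:**
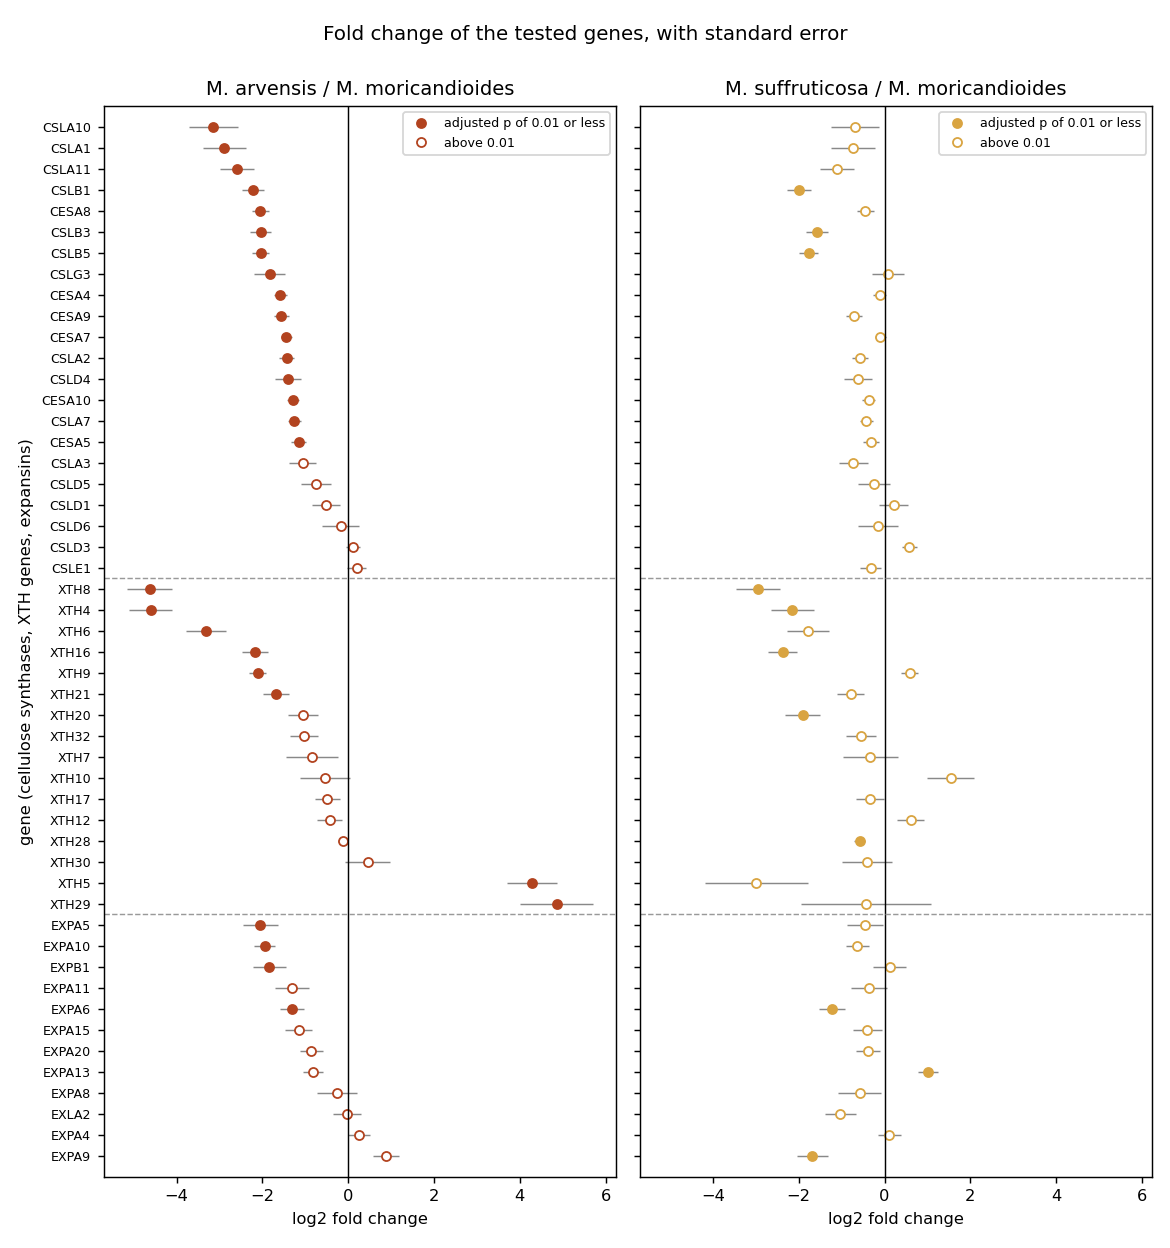
Log2 fold change (x axis) of the 50 tested members (y axis, by family and then by the value in *M. arvensis*), in *M. arvensis* (left) and *M. suffruticosa* (right) over *M. moricandioides*. Bars are standard errors and filled points have an adjusted p of 0.01 or less; 28 points are filled on the left and 11 on the right, nearly all of them below 0.

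Cellulose synthases were lower in *M. arvensis* in most cases. In *M. arvensis* 16 of the 22 tested were lower than in *M. moricandioides*, against 16.7% of all transcripts, and none was higher, with none higher at an unadjusted p under 0.05 in edgeR and none called higher by DESeq2 or limma-voom. In *M. suffruticosa* 3 of 22 were lower, against 8.82% of all transcripts, and none was higher (1 at an unadjusted p under 0.05, and 1 each by DESeq2 and limma-voom). The median change on the log2 scale was -1.44 for *M. arvensis* and -0.43 for *M. suffruticosa*. The summed level of the family, in which long genes weigh more, was 843 to 1032 rpm in *M. arvensis* plants, 1603 to 1934 rpm in *M. suffruticosa* plants and 1837 to 2557 rpm in *M. moricandioides* plants.

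The primary wall subunits with reads were CESA5, CESA9 and CESA10, where CESA5 and CESA9 can take the place of CESA6 in the Arabidopsis complex. CESA5 (AT5G09870) had 239, 263, 256 and 282 rpm in *M. arvensis* plants 9, 12, 13 and 15, 385, 456 and 511 rpm in *M. suffruticosa* plants 6, 7 and 8, and 648, 633, 506 and 372 rpm in *M. moricandioides* plants 6, 8, 12 and 15. Every *M. arvensis* plant lay below every plant of the other species, while the *M. suffruticosa* and *M. moricandioides* plants overlapped. Its fold change on the log2 scale was -1.16 in *M. arvensis* (SE 0.18, edgeR adjusted p = 0.000276), and for *M. suffruticosa* it was -0.32 (0.19, adjusted p = 0.228). In the same order of plants, CESA10 (AT2G25540) had 182, 237, 243 and 270 rpm in *M. arvensis* plants, 384, 444 and 434 rpm in *M. suffruticosa*, and 604, 560, 507 and 410 rpm in *M. moricandioides*. Its change on the log2 scale was -1.29 in *M. arvensis* (SE 0.14, edgeR adjusted p = 2.22e-05), and for *M. suffruticosa* it was -0.37 (0.15, adjusted p = 0.072). CESA9 (AT2G21770) had 23.6 to 34.4 rpm in *M. arvensis* plants, 45.2 to 55.4 rpm in *M. suffruticosa* and 50.3 to 98.8 rpm in *M. moricandioides*, with no overlap between *M. arvensis* and the other species. It was lower in *M. arvensis* by a log2 fold change of -1.56 (SE 0.18, edgeR adjusted p = 2.76e-05), and the value in *M. suffruticosa* was -0.70 (0.19, adjusted p = 0.0126).

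The secondary wall subunits CESA4, CESA7 and CESA8, which work together in Arabidopsis xylem and whose loss collapses the vessels there, were all lower in *M. arvensis*. CESA7 (AT5G17420) had 37.5, 48.0, 48.1 and 52.1 rpm in *M. arvensis* plants, 103, 115 and 120 rpm in *M. suffruticosa*, and 132, 130, 104 and 97.0 rpm in *M. moricandioides*. CESA4 (AT5G44030) had 32.7, 44.3, 38.7 and 40.3 rpm in *M. arvensis* plants, 92.5, 102 and 117 rpm in *M. suffruticosa*, and 125, 121, 101 and 84.7 rpm in *M. moricandioides*. CESA8 (AT4G18780) had 6.96, 8.65, 6.71 and 8.45 rpm in *M. arvensis* plants, 18.4, 20.9 and 28.5 rpm in *M. suffruticosa*, and 35.1, 33.6, 26.4 and 23.2 rpm in *M. moricandioides*. For each subunit the *M. arvensis* plants lay apart below all others, and the plants of the other species overlapped. The log2 fold changes in *M. arvensis* were -1.44 for CESA7 (SE 0.13, edgeR adjusted p = 4.71e-06), -1.58 for CESA4 (0.15, adjusted p = 8.85e-06) and -2.05 for CESA8 (0.20, adjusted p = 9.62e-06). In *M. suffruticosa* they were -0.10, -0.11 and -0.45 (edgeR adjusted p = 0.595, 0.611 and 0.109), and *M. arvensis* was lower than *M. suffruticosa* by -1.34, -1.47 and -1.61 (edgeR adjusted p = 3.04e-05, 5.83e-05 and 0.000181). CESA4 was 0.773 to 0.976 times CESA7 over all plants. CESA8 was 0.14 to 0.186 times CESA7 in *M. arvensis*, 0.179 to 0.237 times in *M. suffruticosa* and 0.239 to 0.266 times in *M. moricandioides*, so this proportion did not overlap between either intermediate and *M. moricandioides*.

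CSLA genes encode synthases that in Arabidopsis make mannans, a hemicellulose. Of the 6 tested, 5 were lower in *M. arvensis*, against 16.7% of all transcripts, and none was past the threshold in *M. suffruticosa* (3 lower at an unadjusted p under 0.05 in edgeR, none by DESeq2 and 2 by limma-voom). CSLA1 (AT4G16590) had 97.6, 42.3, 31.4 and 28.2 rpm in *M. arvensis* plants, 173, 307 and 216 rpm in *M. suffruticosa*, and 430, 291, 542 and 203 rpm in *M. moricandioides*. Plant 9 was the highest of the *M. arvensis* plants and still lay below every plant of the other species. The log2 fold change of CSLA1 was -2.88 in *M. arvensis* (SE 0.50, edgeR adjusted p = 0.000574), and for *M. suffruticosa* it was -0.75 (0.51, adjusted p = 0.285). CSLA10 (AT1G24070) had 7.28, 2.14, 1.71 and 2.33 rpm in *M. arvensis* plants, 15.6, 28.7 and 13.7 rpm in *M. suffruticosa*, and 36.7, 23.4, 45.1 and 12.3 rpm in *M. moricandioides*. It was 0.0505 to 0.0935 times CSLA1 in every plant, while CSLA1 differed 19.2-fold between plants, and whether their reads come from separate genes was not tested. CSLA10 was lower in *M. arvensis* by a log2 fold change of -3.15 (SE 0.57, edgeR adjusted p = 0.000733).

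CSLA2 (AT5G22740) and CSLA7 (AT2G35650), which make glucomannan in Arabidopsis, were lower in *M. arvensis* by smaller amounts. CSLA2 had 10.1 to 12.0 rpm in *M. arvensis* plants, 17.0 to 24.9 rpm in *M. suffruticosa* and 25.0 to 34.0 rpm in *M. moricandioides*, and the 3 species did not overlap. The log2 fold change was -1.44 in *M. arvensis* (SE 0.18, edgeR adjusted p = 6.03e-05), and for *M. suffruticosa* it was -0.57 (0.19, adjusted p = 0.0354). CSLA7 had 12.8 to 18.4 rpm in *M. arvensis* plants, 25.4 to 26.4 rpm in *M. suffruticosa* and 29.9 to 37.7 rpm in *M. moricandioides*, again with no overlap, and fell in *M. arvensis* by a log2 fold change of -1.25 (SE 0.14, edgeR adjusted p = 3.39e-05). CSLA11 (AT5G16190) had 1.86 to 2.43 rpm in *M. arvensis* plants, 3.19, 3.61 and 10.0 rpm in *M. suffruticosa* and 8.33 to 13.8 rpm in *M. moricandioides*. *M. suffruticosa* plant 8 lay within the *M. moricandioides* range and plants 6 and 7 lay below it. CSLA11 was lower in *M. arvensis* by -2.59 (SE 0.39, edgeR adjusted p = 0.00021).

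Among the cellulose synthases, the genes called lower in both intermediates were 3 CSLB genes, where 5.37% of all transcripts were lower in both, with the *M. moricandioides* plants shared. CSLB3 (AT2G32530) had 35.4, 33.6, 37.5 and 34.5 rpm in *M. arvensis* plants, 53.0, 50.9 and 38.8 rpm in *M. suffruticosa*, and 89.5, 158, 98.2 and 189 rpm in *M. moricandioides*. CSLB1 (AT2G32610) had 10.9 to 12.2 rpm in *M. arvensis* plants, 11.2 to 14.8 rpm in *M. suffruticosa* and 33.8 to 71.5 rpm in *M. moricandioides*. CSLB5 (AT4G15290) had 4.10 to 5.34 rpm in *M. arvensis* plants, 5.16 to 5.74 rpm in *M. suffruticosa* and 12.7 to 20.1 rpm in *M. moricandioides*. No plant of an intermediate reached the lowest *M. moricandioides* plant for any of the 3 genes, and *M. moricandioides* plants 8 and 15 held the most reads for CSLB1 and CSLB3. In *M. arvensis* the log2 fold changes were -2.04 for CSLB3 (SE 0.24, edgeR adjusted p = 4.22e-05), -2.23 for CSLB1 (0.26, adjusted p = 3.43e-05) and -2.04 for CSLB5 (0.20, adjusted p = 1.01e-05). In *M. suffruticosa* they were -1.57 for CSLB3 (0.26, adjusted p = 0.000866), -1.998 for CSLB1 (0.28, adjusted p = 0.000297) and -1.77 for CSLB5 (0.22, adjusted p = 0.000119). Between the intermediates the differences were -0.46, -0.23 and -0.26 (edgeR adjusted p = 0.175, 0.546 and 0.366). CSLB1 was 0.267 to 0.388 times CSLB3 in every plant and CSLB5 0.101 to 0.179 times CSLB3, while CSLB3 itself differed 5.63-fold between plants. Whether the reads of these 3 genes come from separate genes was not tested.

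CSLG3 (AT4G23990) had 38.3, 14.9, 19.2 and 19.1 rpm in *M. arvensis* plants, 110, 98.2 and 55.7 rpm in *M. suffruticosa*, and 79.0, 66.9, 64.8 and 103 rpm in *M. moricandioides*. The *M. arvensis* plants lay below all others, with a log2 fold change of -1.83 against *M. moricandioides* (SE 0.36, edgeR adjusted p = 0.00139) and of -1.90 against *M. suffruticosa* (0.38, adjusted p = 0.0028). The call against *M. suffruticosa* was lost without *M. arvensis* plant 13 or *M. suffruticosa* plant 6 or 7 (edgeR adjusted p = 0.0103, 0.0139 and 0.0118). CSLD genes make glucan in tip-growing and dividing cells of Arabidopsis, and 1 of 5 was lower in *M. arvensis*, near the 16.7% of all transcripts, and none was called in *M. suffruticosa* (1 higher and none lower at an unadjusted p under 0.05 in edgeR, with 1 higher by DESeq2 and 1 in each direction by limma-voom). CSLD3 (AT3G03050), required for root hairs in Arabidopsis, had 52.0 to 106 rpm in *M. arvensis* plants, 91.6 to 110 rpm in *M. suffruticosa* and 51.1 to 73.2 rpm in *M. moricandioides*. Its change on the log2 scale was 0.10 in *M. arvensis* (SE 0.16, edgeR adjusted p = 0.622), and for *M. suffruticosa* it was 0.58 (0.17, adjusted p = 0.0226).

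**Figure D2:**
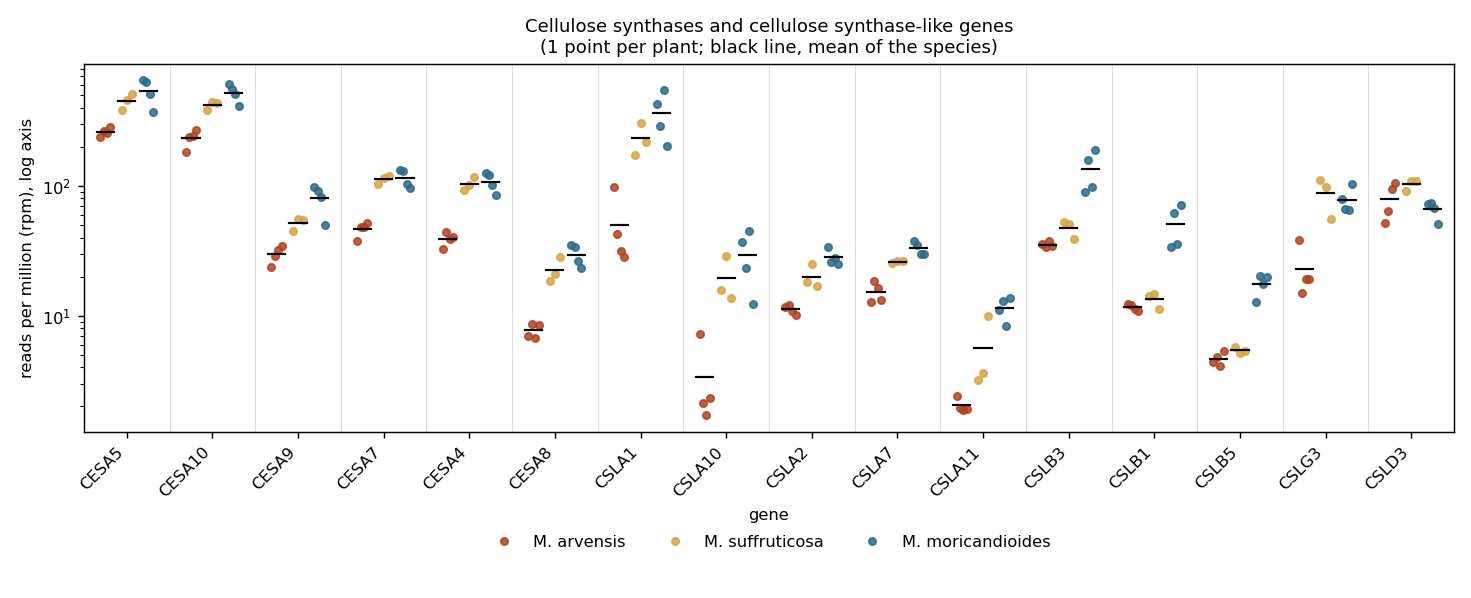
Level in rpm (y axis, log scale) of 16 cellulose synthase and cellulose synthase-like genes (x axis) in every plant, with *M. arvensis* left, *M. suffruticosa* in the middle and *M. moricandioides* right for each gene; black lines are species means. The *M. arvensis* plants lie apart below the rest for the CESA and CSLA genes and CSLG3, and both intermediates lie below *M. moricandioides* for the CSLB genes.

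Among the 16 XTH genes tested, 6 were lower and 2 higher in *M. arvensis* than in *M. moricandioides*, against 16.7% and 18.2% of all transcripts. In *M. suffruticosa* 5 were lower, against 8.82% of all transcripts, and none was higher (2 higher at an unadjusted p under 0.05 in edgeR, none by DESeq2 or limma-voom). The median change on the log2 scale was -0.93 for *M. arvensis* and -0.56 for *M. suffruticosa*. The summed level of the family was 334 to 426 rpm in *M. arvensis* plants, 591 to 600.3 rpm in *M. suffruticosa* plants and 846 to 1413 rpm in *M. moricandioides* plants.

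XTH4, XTH8 and XTH16 were the XTH members lower in both intermediates. XTH4 (AT2G06850), a xyloglucan endotransglucosylase of expanding and vascular tissue in Arabidopsis, had 6.10, 9.81, 5.44 and 4.91 rpm in *M. arvensis* plants, 33.7, 41.8 and 30.8 rpm in *M. suffruticosa*, and 46.0, 284, 173 and 96.0 rpm in *M. moricandioides*. The 3 species did not overlap, and the *M. moricandioides* plants spread over a wide range. Relative to *M. moricandioides*, its change on the log2 scale was -4.61 in *M. arvensis* (SE 0.50, edgeR adjusted p = 2.36e-05), -2.15 in *M. suffruticosa* (0.49, adjusted p = 0.00591), and -2.46 in *M. arvensis* over *M. suffruticosa* (0.49, adjusted p = 0.00256). The call in *M. suffruticosa* was lost without any of its plants 6, 7 and 8 or without *M. moricandioides* plant 8 or 12 (edgeR adjusted p = 0.0123 to 0.0286), and that between the intermediates without *M. suffruticosa* plant 7 (edgeR adjusted p = 0.0108).

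XTH8 (AT1G11545) had 0.313, 0.446, 0.596 and 0.948 rpm in *M. arvensis* plants, 1.42, 2.05 and 1.82 rpm in *M. suffruticosa*, and 16.5, 9.38, 3.77 and 22.1 rpm in *M. moricandioides*. The species did not overlap, and the log2 fold change was -4.63 in *M. arvensis* (SE 0.53, edgeR adjusted p = 3.28e-05), and for *M. suffruticosa* it was -2.95 (0.52, adjusted p = 0.00119). XTH16 (AT3G23730) had 4.46, 7.58, 13.6 and 10.7 rpm in *M. arvensis* plants, 8.92, 6.43 and 6.73 rpm in *M. suffruticosa*, and 44.8, 53.7, 29.6 and 19.8 rpm in *M. moricandioides*. The intermediates overlapped each other and lay below every *M. moricandioides* plant. Its change on the log2 scale was -2.17 in *M. arvensis* (SE 0.29, edgeR adjusted p = 0.000105), and for *M. suffruticosa* it was -2.38 (0.33, adjusted p = 0.000281).

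XTH6 (AT5G65730) had 83.9, 18.0, 38.2 and 30.7 rpm in *M. arvensis* plants, 123, 104 and 157 rpm in *M. suffruticosa*, and 426, 493, 449 and 330 rpm in *M. moricandioides*. No species overlapped another, and *M. suffruticosa* held the middle. XTH6 was lower in *M. arvensis* by a log2 fold change of -3.32 (SE 0.47, edgeR adjusted p = 0.000137), while the value of -1.79 in *M. suffruticosa* did not pass the threshold (0.49, adjusted p = 0.0145) and passed it without *M. arvensis* plant 9 or 12.

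XTH9 (AT4G03210), expressed in shoot apices and elongating stems of Arabidopsis, had 19.6, 19.3, 25.2 and 34.1 rpm in *M. arvensis* plants, 116, 159 and 177 rpm in *M. suffruticosa*, and 99.9, 84.8, 113 and 85.2 rpm in *M. moricandioides*. Here *M. arvensis* lay far below the others and every *M. suffruticosa* plant lay above every *M. moricandioides* plant. On the log2 scale the change was -2.11 in *M. arvensis* (SE 0.20, edgeR adjusted p = 8.53e-06), 0.58 in *M. suffruticosa* (0.20, adjusted p = 0.0434), and -2.69 between *M. arvensis* and *M. suffruticosa* (0.21, adjusted p = 6.97e-06). XTH21 (AT2G18800), which acts in root growth of Arabidopsis, had 4.46 to 10.5 rpm in *M. arvensis* plants, 9.65 to 14.7 rpm in *M. suffruticosa* and 10.5 to 34.3 rpm in *M. moricandioides*. Its highest *M. arvensis* plant reached the level of the lowest *M. moricandioides* plant, and the log2 fold change was -1.68 (SE 0.30, edgeR adjusted p = 0.000627).

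XTH20 and XTH28 were lower in *M. suffruticosa* and did not pass the threshold in *M. arvensis*. XTH28 (AT1G14720), which acts in stamen growth of Arabidopsis, had 153, 177, 189 and 195 rpm in *M. arvensis* plants, 135, 128 and 117 rpm in *M. suffruticosa*, and 192, 211, 153 and 164 rpm in *M. moricandioides*. The *M. suffruticosa* plants lay below all others by a small margin, with a log2 fold change of -0.58 (SE 0.13, edgeR adjusted p = 0.00509). That call was lost without *M. suffruticosa* plant 6, 7 or 8 or *M. moricandioides* plant 6 or 8 (edgeR adjusted p = 0.0123 to 0.0313), and *M. arvensis* over *M. suffruticosa* gave 0.44 (edgeR adjusted p = 0.0187). XTH20 (AT5G48070) had 2.58 to 8.57 rpm in *M. arvensis* plants, 1.91 to 4.39 rpm in *M. suffruticosa* and 5.14 to 16.7 rpm in *M. moricandioides*. The log2 fold change in *M. suffruticosa* was -1.91 (SE 0.40, edgeR adjusted p = 0.00368), and it did not pass without *M. suffruticosa* plant 7 or 8 (edgeR adjusted p = 0.0202 and 0.016). In *M. arvensis* it was -1.06 (0.35, adjusted p = 0.0246), and the intermediates did not differ past the threshold (0.85, edgeR adjusted p = 0.117).

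XTH5 and XTH29 were the members higher in *M. arvensis*, both at low levels and both named after their values had been seen. XTH5 (AT5G13870) had 8.92, 4.64, 2.76 and 4.57 rpm in *M. arvensis* plants, at most 0.0707 rpm in *M. suffruticosa*, and 0.208, 0.489, 0.0724 and 0.269 rpm in *M. moricandioides*. It rose in *M. arvensis* by a log2 fold change of 4.28 over *M. moricandioides* (SE 0.59, edgeR adjusted p = 0.000119). Over the plants these were 256 reads in *M. arvensis*, 1 read in *M. suffruticosa* and 14 reads in *M. moricandioides*, and the ratio of *M. arvensis* to *M. suffruticosa* per counted read was 205 with a 95% counting interval of 36.5 to 8129. XTH29 (AT4G18990) had 72 reads in *M. arvensis*, 1 in *M. suffruticosa* and 2 in *M. moricandioides*, a ratio of 40.6 to *M. moricandioides* with a counting interval of 10.8 to 342. Plant 9 had 0.235 rpm of XTH29, below the 1.72 to 2.01 rpm of the other *M. arvensis* plants, and the adjusted p from edgeR over *M. moricandioides* was 0.000568. These intervals cover counting error only. A single higher member was left without *M. arvensis* plant 12, 13 or 15, since XTH29 then missed the filter on low counts.

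XTH7 (AT4G37800) had 107, 36.3, 19.4 and 15.3 rpm in *M. arvensis* plants, 87.5, 75.0 and 47.1 rpm in *M. suffruticosa*, and 70.2, 129, 91.4 and 44.2 rpm in *M. moricandioides*. Plant 9 of *M. arvensis* lay among the plants of the other species and the other *M. arvensis* plants lay below them all. With all plants the log2 fold change in *M. arvensis* was -0.85 (SE 0.60, edgeR adjusted p = 0.261), and without plant 9 it was -2.03 (edgeR adjusted p = 0.00136). The XTH genes not called in either comparison were XTH7, XTH10, XTH12, XTH17, XTH30 and XTH32.

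**Figure D3:**
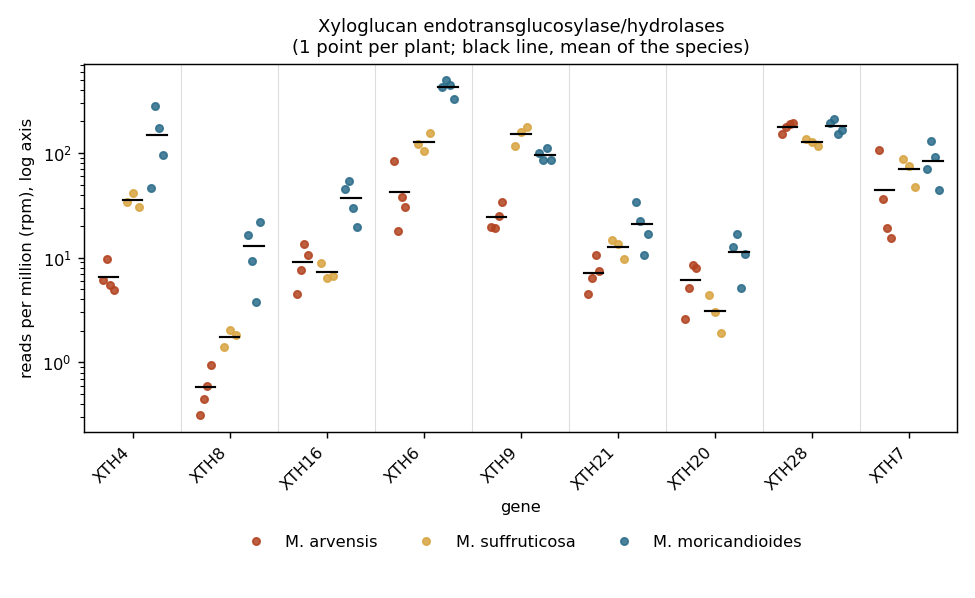
Level in rpm (y axis, log scale) of 9 XTH genes (x axis) in every plant, with *M. arvensis* left, *M. suffruticosa* in the middle and *M. moricandioides* right for each gene; black lines are species means. XTH4, XTH8, XTH16 and XTH6 are highest in *M. moricandioides*, XTH9 is low in *M. arvensis* alone, and 1 *M. arvensis* plant (plant 9) stands above the other *M. arvensis* plants for XTH6 and XTH7.

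Of the 12 expansins tested, 4 were lower in *M. arvensis* relative to *M. moricandioides*, where 16.7% of all transcripts were, and DESeq2 called 8 lower and limma-voom 7. None was higher by edgeR, against 18.2% of all transcripts (1 at an unadjusted p under 0.05, none by DESeq2 or limma-voom). In *M. suffruticosa* 2 were lower and 1 was higher, against 8.82% and 10.1% of all transcripts, with 2 lower by DESeq2 and 4 by limma-voom. The median change on the log2 scale was -1.01 for *M. arvensis* and -0.43 for *M. suffruticosa*, and the summed level of the family was 248 to 361 rpm in *M. arvensis* plants, 318 to 545 rpm in *M. suffruticosa* plants and 519 to 709 rpm in *M. moricandioides* plants.

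EXPA10 (AT1G26770), which promotes leaf and petiole growth in Arabidopsis, had 61.6, 66.0, 45.4 and 50.3 rpm in *M. arvensis* plants, 109, 128 and 172 rpm in *M. suffruticosa*, and 159, 242, 181 and 225 rpm in *M. moricandioides*. The *M. arvensis* plants lay below all others, and *M. suffruticosa* plant 8 lay inside the range of *M. moricandioides*. Its fold change on the log2 scale was -1.94 in *M. arvensis* (SE 0.25, edgeR adjusted p = 6.39e-05), and for *M. suffruticosa* it was -0.63 (0.26, adjusted p = 0.0785). EXPA5 (AT3G29030), an expansin that acts downstream of brassinosteroids in Arabidopsis growth, had 22.3, 9.18, 8.79 and 8.88 rpm in *M. arvensis* plants, 29.0, 35.6 and 49.3 rpm in *M. suffruticosa*, and 44.3, 57.0, 33.7 and 64.6 rpm in *M. moricandioides*. Again every *M. arvensis* plant was below the rest, with plant 9 the nearest to them, and the log2 fold change was -2.05 (SE 0.40, edgeR adjusted p = 0.00129).

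EXPA6 (AT2G28950) was the expansin lower in both intermediates, with 70.7, 105, 63.9 and 68.6 rpm in *M. arvensis* plants, 54.3, 71.0 and 112 rpm in *M. suffruticosa*, and 132, 220, 151 and 204 rpm in *M. moricandioides*. No plant of an intermediate reached the lowest *M. moricandioides* plant. The log2 fold change was -1.30 in *M. arvensis* (SE 0.28, edgeR adjusted p = 0.00214), and for *M. suffruticosa* it was -1.22 (0.31, adjusted p = 0.00936). The call in *M. suffruticosa* was lost without *M. suffruticosa* plant 6 or 7, *M. moricandioides* plant 8, 12 or 15, or *M. arvensis* plant 15 (edgeR adjusted p = 0.0109 to 0.0481). EXPA15 (AT2G03090) had 20.3 to 41.7 rpm in *M. arvensis* plants, 35.1 to 72.0 rpm in *M. suffruticosa* and 49.8 to 74.5 rpm in *M. moricandioides*. Its log2 fold change of -1.16 in *M. arvensis* lay at the threshold and did not pass it (SE 0.32, edgeR adjusted p = 0.0103).

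EXPB1 (AT2G20750), the beta-expansin with reads enough for the test, had 5.24, 3.92, 1.86 and 3.10 rpm in *M. arvensis* plants, 14.2, 18.9 and 8.74 rpm in *M. suffruticosa*, and 12.8, 7.59, 14.6 and 12.9 rpm in *M. moricandioides*. *M. arvensis* lay below both other species, which overlapped. In *M. arvensis* its log2 fold change was -1.84 over *M. moricandioides* (SE 0.38, edgeR adjusted p = 0.00179) and -1.96 over *M. suffruticosa* (0.40, adjusted p = 0.00312). The call against *M. suffruticosa* was lost without *M. arvensis* plant 15 or *M. suffruticosa* plant 6 or 7 (edgeR adjusted p = 0.011 to 0.0182).

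The remaining called expansins, EXPA9 and EXPA13, passed the threshold over *M. moricandioides* in *M. suffruticosa* and not in *M. arvensis*. Their log2 fold changes in *M. arvensis* were 0.89 and -0.82 (edgeR adjusted p = 0.0282 and 0.0102), opposite in direction to *M. suffruticosa*. For EXPA13 that value lay at the threshold and passed it with DESeq2. EXPA9 (AT5G02260) had 22.0, 36.6, 18.3 and 25.1 rpm in *M. arvensis* plants, 4.74, 5.09 and 2.73 rpm in *M. suffruticosa*, and 12.4, 10.3, 8.33 and 19.6 rpm in *M. moricandioides*, and the *M. suffruticosa* plants were the lowest. It was higher in *M. arvensis* than in *M. suffruticosa* by a log2 fold change of 2.57 (SE 0.37, edgeR adjusted p = 0.000324) and lower in *M. suffruticosa* than in *M. moricandioides* by -1.68 (0.36, adjusted p = 0.00379). The second call was lost without *M. suffruticosa* plant 6, 7 or 8 (edgeR adjusted p = 0.0132 to 0.0171). EXPA13 (AT3G03220) had 2.74, 3.74, 5.89 and 7.33 rpm in *M. arvensis* plants, 17.3, 16.5 and 15.9 rpm in *M. suffruticosa*, and 6.67, 10.5, 7.90 and 6.12 rpm in *M. moricandioides*. *M. suffruticosa* plants lay above all others, with a log2 fold change of 1.02 over *M. moricandioides* (SE 0.23, edgeR adjusted p = 0.00577). This was the only member higher in *M. suffruticosa* than in *M. moricandioides*, and the call was lost without any *M. suffruticosa* plant (plant 6, 7 or 8) and without *M. moricandioides* plant 6, 12 or 15 (edgeR adjusted p = 0.0108 to 0.0246). Between *M. arvensis* and *M. suffruticosa* the log2 fold change of EXPA13 was -1.84 (SE 0.24, edgeR adjusted p = 0.000191).

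**Figure D4:**
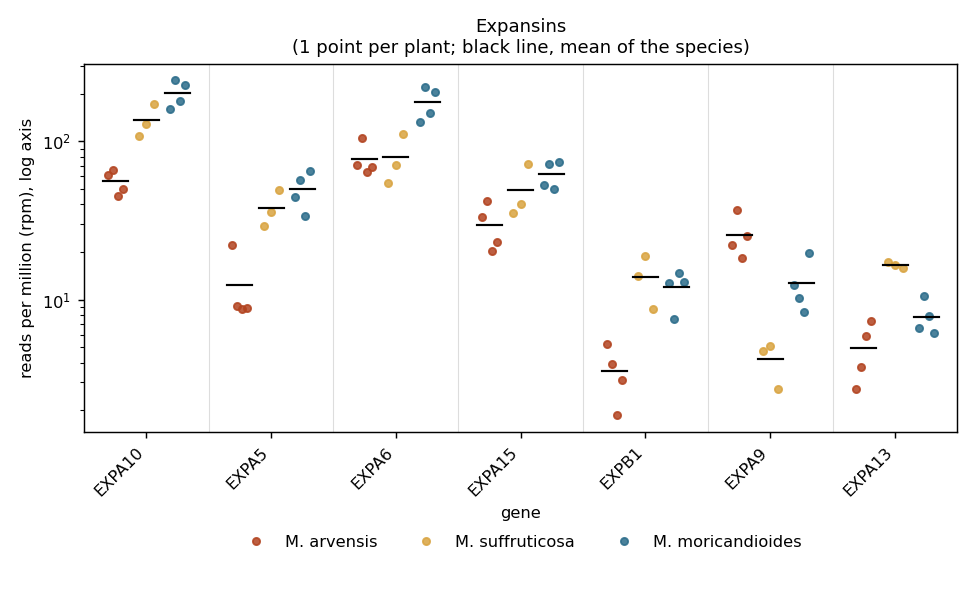
Level in rpm (y axis, log scale) of 7 expansins (x axis) in every plant, with *M. arvensis* left, *M. suffruticosa* in the middle and *M. moricandioides* right for each gene; black lines are species means. EXPA10, EXPA5 and EXPB1 are low in *M. arvensis*, EXPA6 is low in both intermediates, and *M. suffruticosa* is lowest for EXPA9 and highest for EXPA13.

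Calls between *M. arvensis* and *M. moricandioides* did not hang on 1 plant for any lower member named here, since each passed the threshold with each of the 11 plants left out in turn. The count of lower members in that comparison stayed between 26 and 30. In *M. suffruticosa* the count of 10 lower members fell to 6 without plant 6 and to 5 without plant 7. Between the intermediates the count of 16 fell to 10 without *M. arvensis* plant 13, to 10 without *M. arvensis* plant 15 and to 8 without *M. suffruticosa* plant 7. With library totals as the scale, the median over all transcripts in *M. arvensis* was 0.16 on the log2 scale, and 27 members were then lower and 2 higher.

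Some genes of the same families carry other words in their descriptions and are no members. The 4 further XTH loci include XTH23 (AT4G25810), which had 13.9 to 33.1 rpm in *M. arvensis* plants, 13.9 to 21.5 rpm in *M. suffruticosa* and 24.2 to 99.6 rpm in *M. moricandioides*. It was lower in both intermediates, by log2 fold changes of -1.39 in *M. arvensis* and -1.83 in *M. suffruticosa* (edgeR adjusted p = 0.00503 and 0.00357). XTH31 (AT3G44990), known as a xyloglucan hydrolase in Arabidopsis, had 2.50, 23.9, 17.7 and 24.3 rpm in *M. arvensis* plants, 126, 119 and 52.3 rpm in *M. suffruticosa*, and 4.93, 4.81, 5.51 and 2.96 rpm in *M. moricandioides*. All *M. suffruticosa* plants lay above all others, with a log2 fold change of 4.36 (SE 0.53, edgeR adjusted p = 0.000119), while *M. arvensis* did not pass the threshold (1.71, adjusted p = 0.0111). XTH33 (AT1G10550) had 0 reads in *M. suffruticosa* and 187 in *M. moricandioides*, which is at least 44.2-fold lower in *M. suffruticosa* from a floor of 3 reads over the group. Plant 6 held 130 of these 187 reads, and without it the bound was 18.2-fold, a value added after the data had been seen.

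Of 8 further CSL loci 6 were tested, and 5 were lower, against 16.7% of all transcripts, and none higher in *M. arvensis* (by edgeR, also at an unadjusted p under 0.05, and by DESeq2 and limma-voom). In *M. suffruticosa* 1 was higher, against 10.1% of all transcripts, and none lower by edgeR (1 lower at an unadjusted p under 0.05, none by DESeq2 or limma-voom). Among them were CSLC genes, which make the glucan backbone of xyloglucan in Arabidopsis. CSLC4 (AT3G28180) had 20.8, 30.0, 21.0 and 20.6 rpm in *M. arvensis* plants, 52.6, 61.6 and 58.0 rpm in *M. suffruticosa*, and 89.4, 72.5, 51.6 and 51.5 rpm in *M. moricandioides*. Its change on the log2 scale was -1.62 in *M. arvensis* (SE 0.20, edgeR adjusted p = 5.62e-05). CSLC8 (AT2G24630) gave -2.03 (0.30, adjusted p = 0.000201) and CSLA9 (AT5G03760), a glucomannan synthase in Arabidopsis, gave -1.76 (0.17, edgeR adjusted p = 9.53e-06). CSLC12 (AT4G07960) was higher in *M. suffruticosa*, with 10.1 to 12.8 rpm there and 0.807 to 2.99 rpm in *M. moricandioides* (log2 fold change 2.58, SE 0.34, edgeR adjusted p = 0.000188).

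Partners of cellulose synthase guide or anchor the complexes. Of 13 partners listed 8 were tested, and 6 were lower and none higher in *M. arvensis* by edgeR (1 higher at an unadjusted p under 0.05, none by DESeq2 or limma-voom), against 16.7% of all transcripts lower, while 1 was lower in *M. suffruticosa*, near the 8.82% of all transcripts. The median change on the log2 scale was -0.94 for *M. arvensis* and -0.37 for *M. suffruticosa*. COBRA (COB, AT5G60920), an anchored protein that orients microfibrils in Arabidopsis, had 38.2, 35.0, 51.3 and 52.0 rpm in *M. arvensis* plants, 86.0, 93.3 and 73.6 rpm in *M. suffruticosa*, and 128, 148, 115 and 95.9 rpm in *M. moricandioides*. No species overlapped another, and the log2 fold change in *M. arvensis* was -1.59 (SE 0.14, edgeR adjusted p = 6.47e-06). CSI1 (AT2G22125), which links the complexes to microtubules, had a log2 fold change of -1.12 (0.17, adjusted p = 0.000185), the chitinase-like CTL1 (AT1G05850) -1.47 (0.23, edgeR adjusted p = 0.000281) and the companion protein CC2 (AT5G42860) -2.31 (0.33, adjusted p = 0.000162). KOB1 (AT3G08550), needed for cell elongation in Arabidopsis, was lower in both intermediates, by -0.65 in *M. arvensis* and -0.71 in *M. suffruticosa* (edgeR adjusted p = 0.00285 and 0.00494).

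Endoglucanases of glycosyl hydrolase family 9 trim glucan chains of the wall. Of 21 listed 6 were tested, and 5 were lower in *M. arvensis*, against 16.7% of all transcripts, and none in *M. suffruticosa* by edgeR (3 at an unadjusted p under 0.05, 1 by DESeq2 and 3 by limma-voom). GH9C2 (AT1G64390) had 8.61, 7.85, 8.57 and 10.0 rpm in *M. arvensis* plants, 38.9, 50.7 and 58.2 rpm in *M. suffruticosa*, and 60.4, 68.0, 55.7 and 66.1 rpm in *M. moricandioides*. *M. arvensis* lay far below both, by a log2 fold change of -2.95 over *M. moricandioides* (SE 0.17, edgeR adjusted p = 4.95e-07). GH9B5 (AT1G19940) gave -1.85, GH9B8 (AT2G32990) -2.31 and GH9A3 (AT4G24260) -0.88 (edgeR adjusted p = 4.26e-05, 0.000926 and 0.000196).

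**Figure D5:**
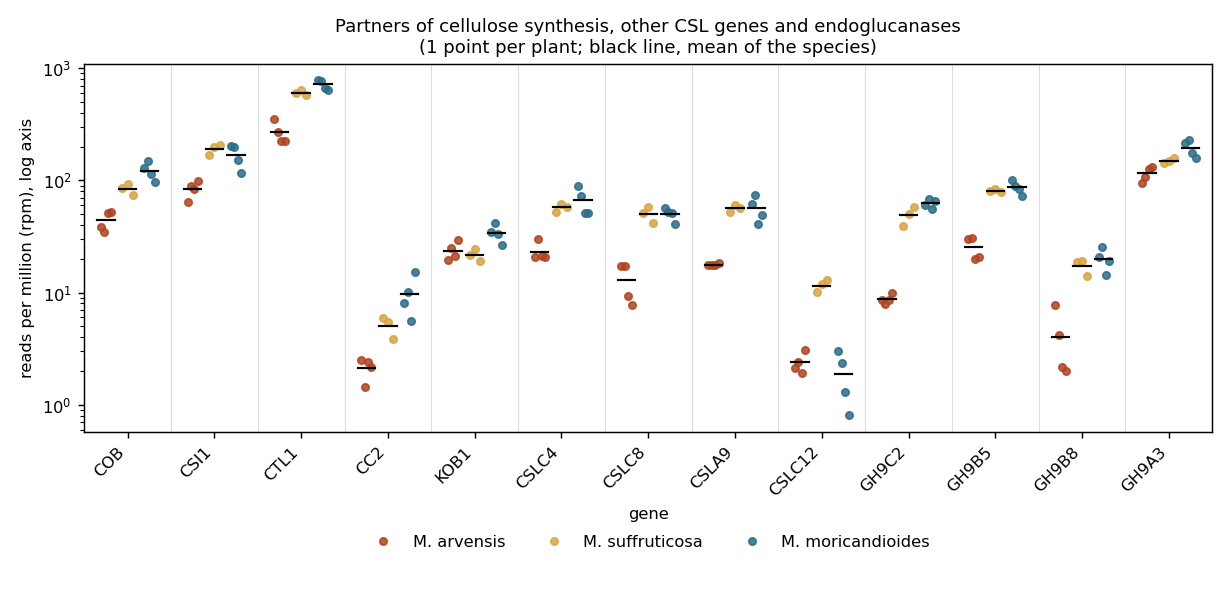
Level in rpm (y axis, log scale) of 13 genes outside the members (x axis) in every plant, with *M. arvensis* left, *M. suffruticosa* in the middle and *M. moricandioides* right for each gene; black lines are species means. The partners of cellulose synthesis and endoglucanases shown are lowest in *M. arvensis*, except that the intermediates overlap for KOB1, and CSLC12 is highest in *M. suffruticosa*. The tested partner SUS4, not shown, had its highest mean in *M. arvensis* (67.0 rpm, against 48.6 in *M. suffruticosa* and 40.2 in *M. moricandioides*).

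Other genes build and trim xyloglucan. Of 10 listed 7 were tested, with 3 lower in *M. arvensis*, against 16.7% of all transcripts, and none called in *M. suffruticosa* by edgeR (2 lower at an unadjusted p under 0.05, none by DESeq2 and 1 by limma-voom). XYL1 (AT1G68560), the xylosidase that trims xyloglucan, had 24.0 to 47.7 rpm in *M. arvensis* plants, 36.3 to 87.8 rpm in *M. suffruticosa* and 75.7 to 184 rpm in *M. moricandioides* (log2 fold change in *M. arvensis* -1.97, SE 0.41, edgeR adjusted p = 0.00187). The xylosyltransferase XXT2 (AT4G02500) was not called, with log2 fold changes of -0.34 in *M. arvensis* and 0.22 in *M. suffruticosa* (edgeR adjusted p = 0.111 and 0.38). The fucosidase AXY8 (AT4G34260) and MUR1 (AT3G51160), an enzyme of fucose supply, were lower in *M. arvensis* by -0.76 and -0.66 (edgeR adjusted p = 0.00262 and 0.000656).

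Of 20 genes of acid growth and growth hormones 12 were tested, with 2 lower and 1 higher in *M. arvensis* and 3 lower in *M. suffruticosa*. The lower count in *M. arvensis* is at the 16.7% of all transcripts, and 18.2% were higher there and 8.82% lower in *M. suffruticosa*. PRE1 (AT5G39860), which promotes cell elongation in Arabidopsis, had 0.172 to 0.548 rpm in *M. arvensis* plants, 0.495 to 0.566 rpm in *M. suffruticosa* and 4.38 to 9.14 rpm in *M. moricandioides*. It was lower in both, by log2 fold changes of -4.49 and -3.67 (edgeR adjusted p = 7.54e-06 and 0.0001). The auxin response gene IAA3 (AT1G04240) was lower in *M. arvensis* (-1.34, edgeR adjusted p = 6.83e-05), IAA7 (AT3G23050) in *M. suffruticosa* (-1.29, adjusted p = 0.000206), and CPD (AT5G05690), an enzyme of brassinosteroid synthesis, in *M. suffruticosa* (-1.13, adjusted p = 0.00914). MIF1 (AT1G74660), a small zinc finger protein that restrains growth in Arabidopsis, was higher in *M. arvensis* (3.83, edgeR adjusted p = 0.000326).

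Markers of cell types and leaf age differed between the species too, and their part in the changes of wall genes was not tested. Of 16 secondary wall and xylem markers 15 had reads, with a summed level of 37.0 to 45.9 rpm in *M. arvensis* plants, 49.0 to 124 rpm in *M. suffruticosa* plants and 97.8 to 184 rpm in *M. moricandioides* plants. By edgeR 8 of 13 tested were lower and 1 was higher in *M. arvensis*, against 16.7% and 18.2% of all transcripts. Higher there were 2 at an unadjusted p under 0.05 in edgeR, 2 by DESeq2 and 2 by limma-voom. In *M. suffruticosa* none was lower by edgeR (3 at an unadjusted p under 0.05, 2 by DESeq2 and 6 by limma-voom). The vessel proteases XCP1 and XCP2 and the laccase IRX12 were lower in *M. arvensis* (log2 fold changes -3.25, -2.83 and -3.37, edgeR adjusted p = 0.000239, 0.000654 and 0.000493), while NST1, a regulator of wall thickening in Arabidopsis, was higher (3.31, adjusted p = 0.00074). *M. suffruticosa* plants 6, 7 and 8 had 3.04, 3.75 and 14.7 rpm of XCP1, all below the 19.6 to 40.8 rpm of *M. moricandioides*. For XCP2 and IRX12 plants 6 and 7 lay below every *M. moricandioides* plant and plant 8 did not. IRX15, a gene of xylan synthesis, was lower in *M. arvensis* and higher in *M. suffruticosa* (-1.78 and 0.95, edgeR adjusted p = 0.000106 and 0.00846).

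Of 14 markers of dividing cells and young leaves 12 had reads, with a sum of 28.8 to 35.3 rpm in *M. arvensis* plants, 41.4 to 48.8 rpm in *M. suffruticosa* and 30.0 to 76.6 rpm in *M. moricandioides*. Of 10 tested, 2 were lower in *M. arvensis*, near the 16.7% of all transcripts: ANT, which prolongs growth of young organs, and the replication gene MCM5 (-1.25 and -1.65, edgeR adjusted p = 0.00358 and 0.00999). MCM5 had 1.94 to 2.23 rpm in *M. arvensis* plants and 2.64, 10.6, 2.10 and 8.48 rpm in *M. moricandioides* plants 6, 8, 12 and 15. Its *M. arvensis* range thus overlapped *M. moricandioides* plant 12. None was higher in *M. arvensis* by edgeR (1 at an unadjusted p under 0.05, 1 by DESeq2 and none by limma-voom). The cyclin CYCB1;1 went the other way, with 0.969 to 2.97 rpm in *M. arvensis* plants and 0.336 to 0.734 rpm in *M. moricandioides*. No marker of this list was called in *M. suffruticosa* (1 lower at an unadjusted p under 0.05, none by DESeq2 and 1 by limma-voom). Of 7 markers of leaf ageing 4 had reads, with a sum of 27.2 to 259 rpm in *M. arvensis* plants, 30.0 to 52.4 rpm in *M. suffruticosa* and 1.67 to 2.61 rpm in *M. moricandioides*. NAP, a NAC regulator of leaf senescence, SAG101 and SEN1, the 3 tested, were higher in both intermediates, where 6.13% of all transcripts were, and the late marker SAG12 was listed at 0 in 10 of 11 plants. SEN1, which darkness and sugar shortage also induce in Arabidopsis, had 9.78, 41.8, 231 and 194 rpm in *M. arvensis* plants, 21.3, 19.5 and 45.7 rpm in *M. suffruticosa* and at most 0.269 rpm in *M. moricandioides*.

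Of 6 markers of mature leaves 5 had reads, with a sum of 37108 to 52178 rpm in *M. arvensis* plants, 38003 to 42777 rpm in *M. suffruticosa* and 50291 to 60221 rpm in *M. moricandioides*. LHCB1.3 was listed at 0 in every plant. Of 5 tested, 2 were lower and none higher in *M. arvensis*, against 16.7% and 18.2% of all transcripts. In *M. suffruticosa* none was called by edgeR (2 lower at an unadjusted p under 0.05, 1 by DESeq2 and 3 by limma-voom). The lower ones were RBCS1A, with 6949 to 10465 rpm in *M. arvensis* plants and 15067 to 20053 rpm in *M. moricandioides*, and CA1, with 3033 to 5841 rpm and 10116 to 11990 rpm. The 3 not called had higher means in *M. arvensis* than in *M. moricandioides*, among them RCA with 18849 and 17515 rpm. The median log2 fold change of the list in *M. arvensis* was 0.02. Of 9 markers of epidermis and guard cells 6 had reads, with a sum of 153 to 188 rpm in *M. arvensis* plants, 179 to 197 rpm in *M. suffruticosa* and 136 to 154 rpm in *M. moricandioides*. Of the 5 tested, 3 were higher in *M. arvensis*, where 18.2% of all transcripts were, and 1 was higher in *M. suffruticosa*, against 10.1% (3 and 1 also by DESeq2 and by limma-voom). None was lower by edgeR in either intermediate (2 in *M. arvensis* and none in *M. suffruticosa* at an unadjusted p under 0.05, with none by DESeq2, and 1 and none by limma-voom). MPK12, a kinase of guard cell signalling in Arabidopsis, was higher in both, by log2 fold changes of 0.94 in *M. arvensis* and 0.87 in *M. suffruticosa* (edgeR adjusted p = 0.000167 and 0.000828). Of 5 touch-induced genes only WRKY40 and ZAT10 had reads, and both were higher in *M. arvensis*, against 18.2% of all transcripts (log2 fold changes 2.72 and 2.13, edgeR adjusted p = 0.000471 and 0.00735), with plant 9 inside the range of *M. moricandioides* for both. In *M. suffruticosa* plants WRKY40 had 8.46 to 11.4 rpm and ZAT10 4.74 to 10.9 rpm, above the at most 3.57 and 4.24 rpm of *M. moricandioides*. Neither was called there by edgeR (2 higher at an unadjusted p under 0.05, 1 by DESeq2 and none by limma-voom).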

How the data were processed

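Leaf RNA of 11 plants was sequenced as single-end reads. The authors matched reads to a reduced set of Arabidopsis (TAIR10) coding sequences and deposited, per gene and plant, raw counts and the same counts divided by all counted reads (rpm). Their own edgeR fold changes and p-values were also deposited and were not used. Members and gene lists were chosen with earlier results of these data known.

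Counts were filtered with filterByExpr (minimum count 10), scaled by TMM and fitted over all 3 species without a block with edgeR 4.0.16 (R 4.3.3), with Benjamini–Hochberg adjustment and a threshold of 0.01. limma 3.58.1 (voom) and DESeq2 1.42.0, other scalings and filters, pairwise fits, a replicate block and leaving out each plant served as alternatives. The fitting code was tested on simulated data. Per-plant values are given for members past the threshold in a comparison with a species mean of at least 10 rpm (largest changes first, up to 12 per family), the 3 most abundant members of each family, the CESA subunits CESA1, CESA3, CESA4, CESA6, CESA7 and CESA8, members at 0 in 1 species with at least 10 reads in another, and up to 5 further ones chosen after their values were seen (XTH5, XTH29, XTH7, CSLA7 and CSLD3). From each pathway or marker list, those called in both comparisons and up to 4 others were named, with SUS4 added to the partners after its values were seen. Sums over a family carry no test. Depth was 10987959 to 14865167 counted reads per plant. No sequences or gene lengths were used here.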

Additional observations from a re-analysis of the deposited data

Results flagged for a closer look

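Among 68 sets of 4 plants, 4 held a plant far from the others, which is near the share of about 1 in 20 that chance gives. All were *M. arvensis* plants, and *M. suffruticosa*, with 3 plants, was not tested in this way. CSLA10 had 7.28 rpm in plant 9, against 1.71 to 2.33 rpm in the other *M. arvensis* plants. EXPA5 had 22.3 rpm in plant 9, against 8.79 to 9.18 rpm in the others. XTH29 had 0.235 rpm in plant 9, against 1.72 to 2.01 rpm in the others. EXPA6 had 105 rpm in plant 12, against 63.9 to 70.7 rpm in the others.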

How the results depend on the processing

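Of 102 comparisons of named members 57 were called, and 11 of these stayed called under each of 22 alternatives, while none reversed. The replicate block left 2 residual degrees of freedom in place of 8. Deviations of same-numbered plants of different species correlated at 0.00831 to 0.0298. Plants with different numbers were not compared in this way, so these values cannot exclude a pairing by plant number. With the block, *M. arvensis* over *M. moricandioides* had 0 higher and 11 lower members, and all counts were 0 for *M. suffruticosa* over *M. moricandioides*, for *M. arvensis* over *M. suffruticosa* and for members lower in both intermediates.

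The 2 members higher in *M. arvensis* became 0 with a filter of 10 rpm, 1 with pairwise fits and 1 to 3 with a plant left out, and the 26 lower became 26 to 30 with a plant left out. The 1 member higher in *M. suffruticosa* became 0 with library totals, 0 with close plants counted once, 4 at a threshold of 0.05, 2 with limma-voom, 2 with DESeq2 and 0 to 1 with a plant left out. The 10 lower there became 5 with close plants counted once, 18 with limma-voom and 5 to 11 with a plant left out. Of *M. arvensis* over *M. suffruticosa*, the 3 higher became 1 with a filter of 10 rpm, 9 with limma-voom and 2 to 4 with a plant left out, and the 16 lower became 5 with close plants counted once, 27 with limma-voom and 8 to 19 with a plant left out. The 7 members lower in both intermediates became 12 at a threshold of 0.05, 14 with limma-voom and 5 to 8 with a plant left out, and members higher in both numbered 0 throughout. The cause of these changes was not tested. Members under the low-count filter could not be compared at this depth.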
